A study of Mus musculus with 4 samples.

Results

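The REG family, small secreted lectins of the gut and pancreas, was followed through its 5 members Reg1, Reg3a, Reg3b, Reg3g and Reg4, each taken as the row of the count table with that gene name, out of 56748 genes listed. RNA sequencing of the small intestine (SI) gave 2 libraries of p53+/+ mice, labelled WT, and 2 of p53-/- mice, all of them irradiated with 12 Gy total-body irradiation (TBI) from a Cs-137 source and taken 1 day post-TBI. The study used mice of 8 to 12 weeks in age. The p53-/- mice are a line deficient in p53 throughout the body, so epithelial and immune cells lacked it alike, and no unirradiated mice were sequenced among these samples. The libraries are called by the numbers of their columns, 7 and 8 for p53+/+ and 9 and 10 for p53-/-. All 5 members passed the filter on low counts, as did 16094 genes in all.

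REG proteins are secreted C-type lectins. REG3B and REG3G are bactericidal proteins that epithelial cells of the SI release into the lumen, where they help to keep bacteria away from the mucosal surface. Their genes are known to be switched on by microbial signals through Toll-like receptors and MyD88, and by interleukin-22, which acts through STAT3. REG1 was first described in regenerating pancreatic islets, and REG4 is known from enteroendocrine and goblet cells of the gut.

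In the annotation GENCODE M21, Reg3b, Reg3d, Reg3a, Reg2, Reg1 and Reg3g lie in that order within 98.2 kb of mouse chromosome 6, with no other annotated gene between them, and Reg4 lies on chromosome 3. Reg3b and Reg3g, the outermost genes of this cluster, lie on opposite strands. The 250 bases before the RefSeq transcription start on GRCm38.p6 are printed 5′ to 3′ for this pair, whose levels were the highest of the family, and for Reg3a, a gene between them in the cluster, whose genotypes overlapped. Reg3b is at chr6:78370635-78370884 on the plus strand, Reg3g at chr6:78468875-78469124 on the minus strand and Reg3a at chr6:78380459-78380708 on the plus strand. Capitals mark TATAAA, the TATA box letters, and TTCNNNGAA, the letters of a STAT site, each searched on both strands.
Reg3b: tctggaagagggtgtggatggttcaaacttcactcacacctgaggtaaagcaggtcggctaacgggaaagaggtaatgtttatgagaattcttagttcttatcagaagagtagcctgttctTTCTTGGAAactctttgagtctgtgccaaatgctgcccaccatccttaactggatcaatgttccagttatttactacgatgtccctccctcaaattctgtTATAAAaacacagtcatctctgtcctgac
Reg3g: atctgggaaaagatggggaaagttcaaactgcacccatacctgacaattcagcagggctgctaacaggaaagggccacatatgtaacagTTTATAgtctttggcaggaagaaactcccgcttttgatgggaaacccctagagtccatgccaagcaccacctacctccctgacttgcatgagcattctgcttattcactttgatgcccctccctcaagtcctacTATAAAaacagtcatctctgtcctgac
Reg3a: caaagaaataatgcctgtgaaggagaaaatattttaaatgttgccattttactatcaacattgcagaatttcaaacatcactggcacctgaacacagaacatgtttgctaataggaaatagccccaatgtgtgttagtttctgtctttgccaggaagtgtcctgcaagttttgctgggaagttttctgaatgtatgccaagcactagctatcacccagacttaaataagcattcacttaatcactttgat
Reg3b and Reg3g both hold TATAAA close to the start, 29 and 27 bases upstream. The same letters stand 30 bases upstream in both Reg1 and Reg2. Anywhere in the window and on either strand, 12.4% of 32851 RefSeq promoters of the same length hold them. In Reg3g they stand once more, on the opposite strand 161 bases upstream. Reg3b also holds TTCNNNGAA 129 bases upstream, and Reg3d holds it 238 bases upstream, as do 7.02% of promoters anywhere in the window. Neither set of letters was found in the windows of Reg3a and Reg4. Over the window of 300 bases that runs on 50 bases past the start, Reg3b and Reg3g were 68.1% identical, against 44.3% to 55.8% for the other 20 pairs among the 7 REG genes. They shared an unbroken run of 29 bases that begins 20 bases before the start in both.
Shared run: ACAGTCATCTCTGTCCTGACACACCATCC
The longest run in any of the other 20 pairs was 14 bases. The coding sequences of Reg3b and Reg3g were 76.0% identical, and those of Reg3a were 73.9% identical to Reg3b and 73.2% to Reg3g. No stretch of 50 bases was shared between transcripts of any of the REG genes, so a read of that length could not fit a second family member without mismatches.

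The libraries held 15005479 to 22173164 counts. Library 10 stood apart, with 4.59% of its counts on the ribosomal RNA gene Rn18s-rs5 against 0.296% to 0.863% in the others, and with the highest B cell marker counts. Trp53, the gene that encodes p53, was at 57.7 and 47.1 CPM (each count over its library's total after TMM scaling, on one common scale) in p53+/+ and 19.8 and 22.5 CPM in p53-/-, lower in both p53-/- libraries as labelled (a log2 fold change of -1.31, in the quasi-likelihood (QL) test of edgeR with a Benjamini-Hochberg (BH) adjusted p = 0.0602). Among markers of the tissue, the epithelial gene Epcam was at 2225 to 4181 CPM and the ileal bile acid binding gene Fabp6 at 1639 to 5483 CPM. Of 15 pancreatic acinar genes, 13 had at most 8 counts in every library, and Prss2 and Amy2a5, which encode digestive enzymes of the pancreas, were at 0 in all of them.

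Reg3b was the most abundant member in every library. Its counts were 67379 and 91834 in p53+/+ SI against 381172 and 371215 in p53-/- SI. By counts it ranked 13th and 5th among all genes in p53+/+ SI, and 1st and 2nd in p53-/- SI. Its level was 4170 and 5958 CPM in p53+/+ and 16706 and 18465 CPM in p53-/-, so that both p53-/- libraries stood above both p53+/+ libraries. The means were 5064 ± 1265 and 17586 ± 1243 CPM (SD, n = 2), a difference of 3.47-fold. The distance between the genotypes exceeded the distance within them: the lower p53-/- library was 2.80 times the higher p53+/+ library, while the libraries of a genotype differed by 1.43 times in p53+/+ and 1.11 times in p53-/-. The log2 fold change was 1.80 (standard error, SE, 0.456), and it did not pass the threshold of 0.05 (edgeR QL test, BH-adjusted p = 0.148, unadjusted p = 0.00923).

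Reg3g, which encodes a lectin that binds peptidoglycan and kills Gram-positive bacteria, showed the same order of libraries. It held 30270, 51733, 263846 and 262598 counts in libraries 7 to 10, and ranked 58th and 14th in p53+/+ against 2nd and 3rd in p53-/-. At 1873 and 3357 CPM in p53+/+ against 11564 and 13062 CPM in p53-/-, the genotypes did not overlap, and the lower p53-/- library was 3.45 times the higher p53+/+ library. The means were 2615 ± 1049 and 12313 ± 1059 CPM (SD, n = 2), 4.71-fold apart. The log2 fold change of 2.24 (SE 0.472) missed the threshold, with a BH-adjusted p of 0.113 in the edgeR QL test (unadjusted p = 0.00412). It passed without library 8, at 2.71 (edgeR QL test, BH-adjusted p = 0.0381). By the difference in mean CPM, which favours abundant genes, Reg3b and Reg3g ranked 2nd and 3rd of all genes, at 12522 and 9698 CPM. By log2 fold change they ranked 864th and 659th from the top of the 16094 genes tested.

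Reg1 was a low gene in this tissue. It had 30 and 8 counts in p53+/+ SI and 156 and 97 in p53-/- SI, with exact 95% Poisson intervals of 20.2 to 42.8, 3.45 to 15.8, 132 to 182 and 78.7 to 118 counts that cover counting error only. In CPM it stood at 1.86, 0.519, 6.84 and 4.82 in libraries 7 to 10, again with no overlap of genotypes. The p53+/+ libraries differed from each other by 3.58 times, more than the 2.60 times that separated the nearest libraries of the genotypes. Its log2 fold change of 2.29 (SE 0.687) had a BH-adjusted p of 0.188 in the edgeR QL test (unadjusted p = 0.0183). Without library 7 the log2 fold change was 3.48 and passed (edgeR QL test, BH-adjusted p = 0.0278), and without library 8 it was 1.64 and did not (edgeR QL test, BH-adjusted p = 0.0886).

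Reg3a, of the same subfamily as Reg3b and Reg3g, did not share their pattern. It held 1401, 1029, 1841 and 1790 counts in libraries 7 to 10, which is 86.7, 66.8, 80.7 and 89.0 CPM. The genotypes overlapped, since library 7 of p53+/+ lay between the p53-/- libraries. The log2 fold change was 0.15 (SE 0.189, edgeR QL test, BH-adjusted p = 0.755), and it turned to -0.037 without library 8 (edgeR QL test, BH-adjusted p = 0.927).

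Reg4 was the member with the opposite order. Its counts were 2364 and 1536 in p53+/+ SI against 1525 and 1287 in p53-/- SI. At 146 and 99.7 CPM in p53+/+ and 66.8 and 64.0 CPM in p53-/-, it was lower in both p53-/- libraries, with means of 123 ± 32.98 and 65.4 ± 1.995 CPM (SD, n = 2). The log2 fold change was -0.91 (SE 0.226, edgeR QL test, BH-adjusted p = 0.145; unadjusted p = 0.00841). It passed without library 8, at -1.17 (edgeR QL test, BH-adjusted p = 0.0262), and was -0.60 without library 7.

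**Figure D1:**
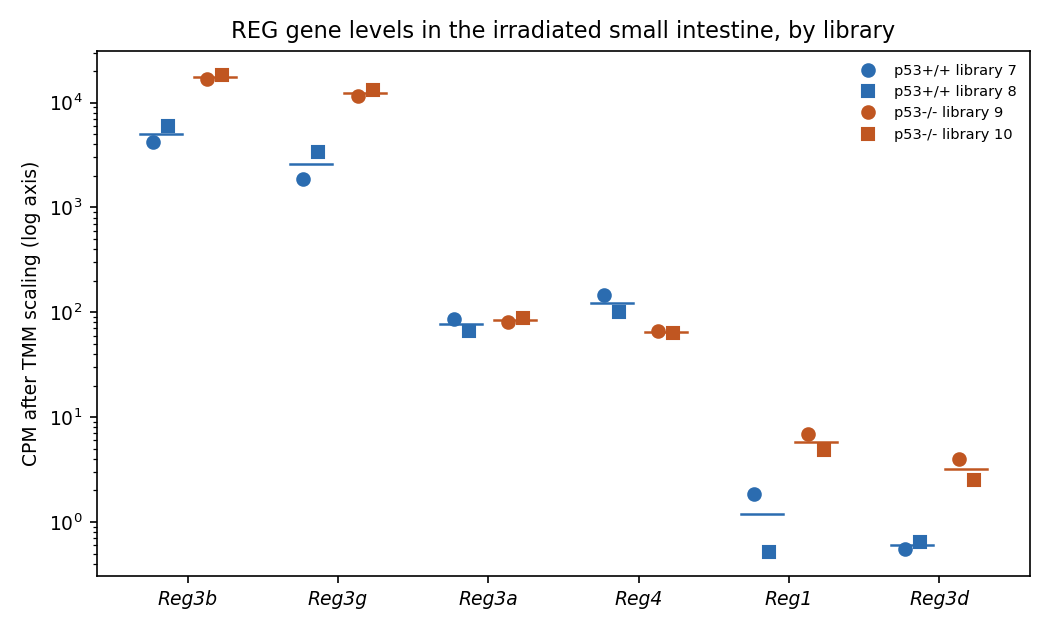
Level of 6 REG genes in each library, in CPM after TMM scaling on a log axis; points are libraries and short lines are the means of 2 libraries per genotype. Reg3b, Reg3g, Reg1 and Reg3d lie higher in both p53-/- libraries, Reg4 lies lower, and the genotypes of Reg3a overlap.

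Of the 5 members, 3 were higher and 1 lower in both p53-/- libraries than in both p53+/+ libraries, where 26.4% and 24.4% of all genes tested were so ordered. None of the 5 passed the edgeR QL test, which called 0.298% of genes higher and 0.193% lower. At an unadjusted p under 0.05 the same test had 3 members higher and 1 lower, against 10% and 7.92% of all genes. DESeq2 called Reg3b (adjusted p = 2.04e-11), Reg3g (adjusted p = 1.08e-10) and Reg1 (adjusted p = 0.0473) higher and Reg4 lower (adjusted p = 0.00693), and had Reg3a at an adjusted p of 0.869; its background was 5.47% higher and 4.47% lower. The same 4 genes passed edgeR's likelihood ratio test, which called 5.18% of genes higher and 2.87% lower, and the QL test when low counts were not filtered, which called 5.15% and 2.73%. Whether these members passed therefore depended on the test and the filter. The size of the difference moved little over the 8 settings of scaling, test and filter, all of which used the same libraries. The log2 fold change ran from 1.78 to 1.86 for Reg3b, from 2.22 to 2.29 for Reg3g, from 0.13 to 0.22 for Reg3a and from -0.92 to -0.83 for Reg4, and from 2.28 to 2.39 for Reg1, which had too few counts for the strictest filter. It moved more when 1 library was left out, from 1.57 to 2.07 for Reg3b, 1.88 to 2.71 for Reg3g, 1.64 to 3.48 for Reg1 and -1.17 to -0.60 for Reg4. Without library 10, which stood apart, the log2 fold changes were 1.77 for Reg3b, 2.19 for Reg3g, 2.58 for Reg1, 0.13 for Reg3a and -0.82 for Reg4, and the edgeR QL test then called 0 genes of the whole table, with 1201 at an unadjusted p under 0.05. The study's methods call its data points biological replicates in general, while the labels do not tie each library to a mouse. The p-values are therefore read here as setting the difference between genotypes against the spread between these libraries.

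**Figure D2:**
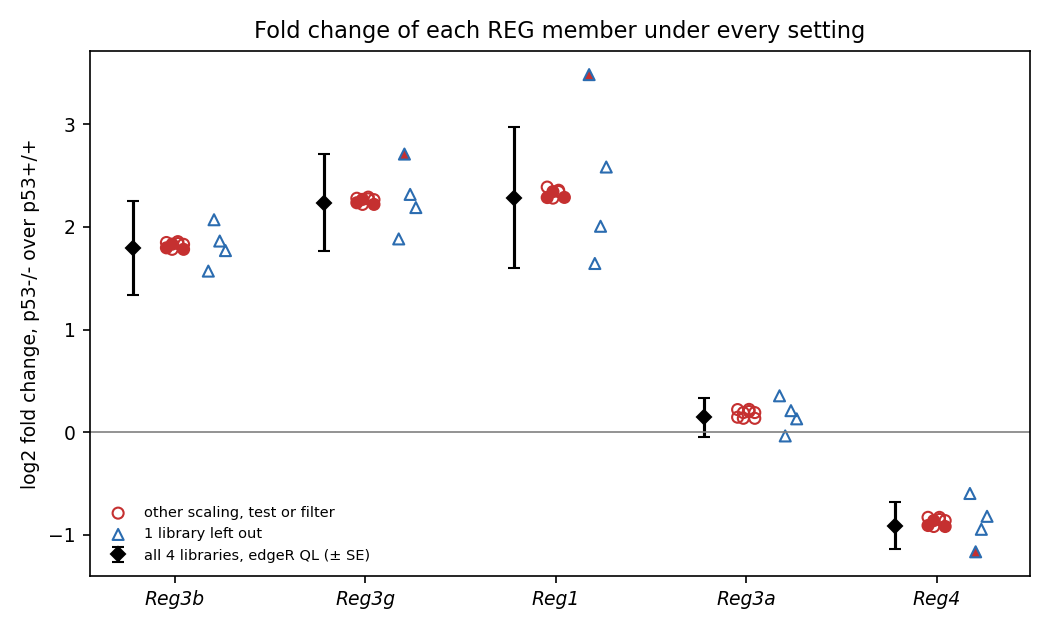
Log2 fold change of each member, p53-/- over p53+/+, with all 4 libraries (diamond, ± standard error), under other scalings, tests and filters (circles) and with 1 library left out (triangles). Filled circles and triangles have an adjusted p under 0.05. Diamonds are always drawn solid, and none of them had an adjusted p under 0.05. Reg3b, Reg3g and Reg1 stay above 0 and Reg4 below 0 in every setting shown, and Reg3a crosses 0 once.

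The other REG genes of the cluster were scarce. Reg3d had 9 and 10 counts in p53+/+ and 90 and 50 in p53-/-, or 0.557, 0.649, 3.94 and 2.49 CPM, a log2 fold change of 2.40 (SE 0.538, edgeR QL test, BH-adjusted p = 0.124). Reg2 had 0 counts in both p53+/+ libraries, which allows up to 0.186 and 0.195 CPM at 3 counts, and 5 counts in each p53-/- library, and was too low to be tested. Reg2 also shared part of its sequence with other genes, with 88.7% of its stretches of 50 bases found in no other annotated gene, against 96.4% for Reg1 and 100% for Reg3a, Reg3b, Reg3d, Reg3g and Reg4.

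Together the 5 members took 0.582% and 0.974% of all counts in p53+/+ SI, and 2.92% and 3.22% in p53-/- SI. This is 1 read in 172 and 1 in 103, against 1 in 34.2 and 1 in 31.1. The mean share was 0.778 ± 0.277% in p53+/+ and 3.07 ± 0.205% in p53-/- (SD, n = 2), 3.95-fold apart, and the genotypes did not overlap. With 2 libraries in each genotype an exact two-sided permutation test cannot give a p below 0.333, the value it gave here. Reg3b and Reg3g made up 96.3% and 98.2% of the family's counts in p53+/+ and 99.5% in both p53-/- libraries, so that the share of the family is nearly that of this pair.

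**Figure D3:**
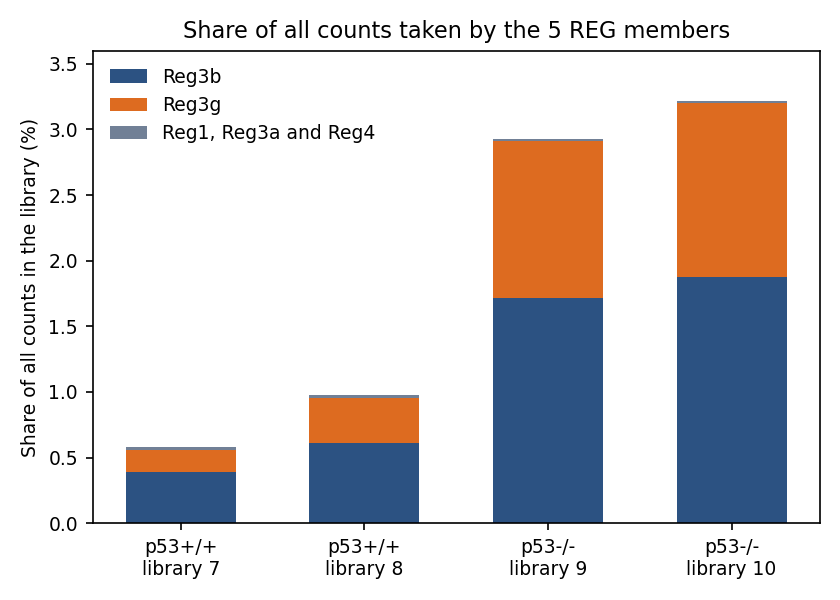
Share of all counts in each library taken by the 5 members, in percent, stacked by gene. The bars reach 0.582% and 0.974% in p53+/+ SI and 2.92% and 3.22% in p53-/- SI, nearly all of it Reg3b and Reg3g.

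The balance between the bactericidal lectins was also compared. For each read of Reg3b there were 0.449 and 0.563 reads of Reg3g in p53+/+ SI and 0.692 and 0.707 in p53-/- SI. The mean ratio was 0.506 ± 0.0807 in p53+/+ and 0.700 ± 0.0108 in p53-/- (SD, n = 2), with no overlap (exact two-sided permutation p = 0.333, the smallest this design allows). The nearest libraries of the genotypes were 1.23 times apart. As a ratio this gap was no larger than the 1.25 times between the p53+/+ libraries, and larger than the 1.02 times between the p53-/- libraries. This ratio is within a library and does not depend on its scaling.

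Per kilobase of the longest protein-coding transcript, the order of levels in p53+/+ SI was Reg3b at 5325 and 7610 CPM per kb, Reg3g at 2430 and 4354, Reg4 at 143 and 97.6, Reg3a at 105 and 80.9, and Reg1 at 2.05 and 0.574. The neighbours Reg4 and Reg3a overlapped, and no other neighbours did. In p53-/- SI the order was Reg3b at 21336 and 23582 CPM per kb, Reg3g at 14999 and 16942, Reg3a at 97.8 and 108, Reg4 at 65.5 and 62.7, and Reg1 at 7.56 and 5.34, with no overlap between neighbours. Reg3a and Reg4 thus stood in opposite order in the genotypes. Reg3g has an annotated transcript of 2089 bases, longer than its coding one of 771 bases, and by this length its mean level was 1252 and 5894 CPM per kb in p53+/+ and p53-/-, still between Reg3b and the other members.

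In bulk tissue, fewer cells of a type and less RNA per cell cannot be told apart, so the members were also set against markers of the cells known to express them. All 7 epithelial markers had log2 fold changes below 0, with a median of -0.47 against -0.0084 over all genes tested, and none passed the threshold, with 0 also at an unadjusted p under 0.05 and 1 lower by DESeq2. Krt8, Epcam and Krt20 were the most abundant of them, with log2 fold changes of -0.48, -0.58 and -0.27. The median was -0.15 without library 7, with 1 gene then above 0, -0.73 without library 8 and -0.30 without library 10. Per count of Epcam, Reg3b stood at 0.997 and 1.97 in p53+/+ and 6.43 and 8.30 in p53-/-, a difference of 4.96-fold. Reg3g per Epcam stood at 0.448, 1.11, 4.45 and 5.87 in libraries 7 to 10, a difference of 6.62-fold. Both differences were larger than those in CPM. Reg3a per Epcam was 0.0207 and 0.0221 against 0.0310 and 0.0400, so that Reg3a, which overlapped in CPM, did not overlap on this scale. Reg4 per Epcam was 0.0350 and 0.0330 against 0.0257 and 0.0288, 0.801 times the p53+/+ value.

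Paneth cells, the crypt cells that secrete lysozyme and defensins, are a known source of REG3 lectins. Of 15 Paneth cell genes, 13 had log2 fold changes above 0 with a median of 0.61, and only Mptx2, a pentraxin-like gene, passed the threshold, with 1074, 811, 7900 and 10831 counts in libraries 7 to 10 (log2 fold change 2.89, edgeR QL test, BH-adjusted p = 0.0416), a call not made without library 10 (BH-adjusted p = 0.189 in the same edgeR test). At an unadjusted p under 0.05 the edgeR QL test had 4 Paneth cell genes higher and 0 lower, and DESeq2 called 4 higher and 0 lower. The most abundant of the list were Lyz1, Defa24 and Defa21, at log2 fold changes of 0.57, 0.61 and 0.80. The median was 0.37 without library 8, with 11 genes above 0, and 0.91 without library 7. The summed level of the list ran from 13519 to 19854 CPM in p53+/+ and from 22898 to 27253 CPM in p53-/-. Per count of Lyz1, which encodes lysozyme, Reg3b was at 0.695 and 1.52 in p53+/+ and 2.53 and 2.27 in p53-/-, 2.17-fold apart, and Reg3g was 2.88-fold apart, both without overlap. Log2 fold changes of this list ran from -0.22 to 2.89, so such ratios depend on the Paneth cell gene chosen. Mptx2, at 2.89, lay above Reg3b at 1.80 and Reg3g at 2.24, and no other gene of the list did. The part of Paneth cell number in the levels of Reg3b and Reg3g was not tested.

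Enterocytes, the absorptive cells, are the other known source of Reg3b and Reg3g. Of 15 enterocyte genes, 13 had log2 fold changes below 0 with a median of -0.52, and none passed, with 4 lower at an unadjusted p under 0.05 and 5 lower by DESeq2. The most abundant were Anpep, Apoa1 and Vil1, with log2 fold changes of -0.21, -0.88 and -0.46. Per count of Alpi, the intestinal alkaline phosphatase of the brush border, Reg3b was 6.64-fold and Reg3g 8.91-fold higher in p53-/- SI. Alpi itself had a log2 fold change of -0.93, below the median of its list, which makes these ratios larger. The list ran from -1.72 to 0.26, so the ratios depend on the enterocyte gene chosen.

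For Reg4, the goblet and enteroendocrine lists were compared. Of 8 goblet cell genes none passed (median log2 fold change -0.28, 1 lower both at an unadjusted p under 0.05 and by DESeq2), Fcgbp, Zg16 and Clca1 being the most abundant, at -0.22, -0.96 and -0.35. Its median was -0.52 without library 9 and -0.0055 without library 10, with 4 genes then above 0. Of 14 enteroendocrine genes 1 passed, Tac1, which encodes the precursor of substance P, with 142, 172, 1052 and 786 counts in libraries 7 to 10 (log2 fold change 2.09, edgeR QL test, BH-adjusted p = 0.0433), a call not made without library 9 or without library 10 (BH-adjusted p of 0.109 and 0.306 in the same edgeR test), nor with library sizes only, upper-quartile factors, the stricter filter or scaling without the 50 most abundant genes (0.0556 to 0.067). At an unadjusted p under 0.05 the enteroendocrine list had 1 gene higher and 1 lower in the edgeR QL test, and DESeq2 called 1 higher and 1 lower. The median of that list was -0.0081, 0.27 without library 7 and -0.37 without library 8, and its most abundant genes Nts, Gcg and Chgb were at -0.48, -0.84 and 0.012. Per count of Chga, the chromogranin of endocrine granules, Reg4 was at 2.19 and 2.36 in p53+/+ and 1.38 and 1.25 in p53-/-, with no overlap, whereas per count of Muc2, the main goblet mucin, the genotypes overlapped. Chga itself had a log2 fold change of -0.13, while that of Gcg, at -0.84, was near the -0.91 of Reg4. The level of Reg4 against enteroendocrine genes thus depends on the gene chosen.

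REG genes are expressed unevenly along the gut, so markers of position were examined. Of 4 ileal genes all had log2 fold changes below 0 (median -0.81) and none passed, with 3 lower at an unadjusted p under 0.05 and 2 lower by DESeq2, among them Fgf15, the bile acid induced hormone, with 897, 304, 104 and 133 counts in libraries 7 to 10 (log2 fold change -2.75, edgeR QL test, BH-adjusted p = 0.106). Of 5 tested genes of the proximal SI 4 were above 0 (median 1.45) and none passed, with 3 higher at an unadjusted p under 0.05 and 1 higher by DESeq2, among them Slc40a1, the iron exporter, at 524, 327, 2099 and 1484 counts (log2 fold change 1.63). The summed level of the proximal list was 25.3 to 38.1 CPM in p53+/+ and 88.2 to 101 CPM in p53-/-, and that of the ileal list 3293 to 6756 and 2548 to 2897 CPM. The sources used here do not state which segment of the SI was taken, and the part of position in the levels of the REG genes was not tested. Of 7 colon genes 3 had enough counts to be tested, and none passed, 2 being lower at an unadjusted p under 0.05 and 1 by DESeq2. The median of -0.49 had no stable direction, at 0.18 without library 7, 1.23 without library 8 and 0.49 without library 10, with 4 genes then tested. Of the pancreatic list, only Cela1 and Clps were tested, at log2 fold changes of 0.31 and 0.82, and neither passed (1 higher both at an unadjusted p under 0.05 and by DESeq2).

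The signals known to induce Reg3b and Reg3g were mostly at the limit of detection in whole SI. Il22 had 0, 0, 2 and 4 counts in libraries 7 to 10 and Il6 had 0, 0, 0 and 2. Il17a was at 0 in both p53+/+ libraries and at 17 and 16 counts in p53-/- SI. Of 11 cytokines of this list 4 could be tested and none passed (median log2 fold change 2.09, or 1.94 with Il17a at the bound set by 3 counts per library), with 3 higher at an unadjusted p under 0.05 and 1 by DESeq2. The median was 4.50 without library 8 and 2.93 without library 9, with 6 genes then tested. Tnf, with 41, 25, 178 and 266 counts, was higher in both p53-/- libraries (log2 fold change 2.33, edgeR QL test, BH-adjusted p = 0.106), as was Il1b, with 8, 20, 59 and 79 counts (log2 fold change 1.86, edgeR QL test, BH-adjusted p = 0.230). Il18, an epithelial cytokine, was at a log2 fold change of 0.14.

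The receptors of these cytokines ranged widely in level, from Ifngr1 at 198 to 341 CPM to Il23r, which had 0 to 4 counts and was too low to be tested. Il22ra1, the epithelial chain of the interleukin-22 receptor, was at 129 and 127 CPM in p53+/+ and 130 and 78.2 CPM in p53-/-, and the genotypes overlapped. Of 10 tested receptor genes none passed (median log2 fold change -0.10, 2 lower at an unadjusted p under 0.05 and 1 by DESeq2), with Ifngr1 and Il17rc, the other most abundant genes, at -0.66 and -0.28. The median of this list changed sign with the libraries used, at 0.23 without library 8 and 0.15 without library 9, and was -0.26 without library 7 and -0.15 without library 10. Extl3, which encodes a glycosyltransferase reported as a REG receptor, had 525, 729, 898 and 810 counts, a log2 fold change of -0.0023, and -0.24 to 0.29 when 1 library was left out.

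Downstream, Stat3 was at 192 and 205 CPM in p53+/+ and 226 and 207 CPM in p53-/-, a log2 fold change of 0.12 (edgeR QL test, BH-adjusted p = 0.781). Socs3, a target and inhibitor of STAT3, was at 92.7, 41.5, 120 and 156 CPM in libraries 7 to 10 (log2 fold change 1.04, edgeR QL test, BH-adjusted p = 0.261). Of the 6 genes of this list none passed, with 2 higher at an unadjusted p under 0.05 and 1 by DESeq2, and the median was 0.10.

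Of 14 Toll-like receptor and MyD88 genes 1 passed the threshold, Tlr2, the receptor for bacterial lipoproteins, with 45 and 44 counts in p53+/+ and 493 and 319 in p53-/- (log2 fold change 2.73, SE 0.321, edgeR QL test, BH-adjusted p = 0.0494). Tlr2 did not pass with other scalings or the stricter filter (BH-adjusted p of 0.0541 to 0.0668 in the edgeR QL test) or without library 9 or 10 (0.151 and 0.306). The list had a median log2 fold change of 0.26. Of its genes 5 were higher and 1 lower at an unadjusted p under 0.05 in the edgeR QL test, and DESeq2 called 2 higher and 1 lower. Nfkbiz, an inducible nuclear cofactor of NF-κB, was just outside the threshold at 1.88 (edgeR QL test, BH-adjusted p = 0.0551), and the other most abundant genes, Nfkb1 and Ticam1, were at 0.073 and -0.77. Myd88 itself was at 37.6 and 35.8 CPM in p53+/+ and 41.8 and 45.2 CPM in p53-/-, a log2 fold change of 0.24.

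Other products known to respond to microbes stood beside Reg3b and Reg3g. All 19 tested genes of this list had log2 fold changes above 0, with a median of 1.72 against -0.0084 over all genes. Of them 17 were higher in both p53-/- libraries, where 26.4% of all genes tested were so ordered. An unadjusted p under 0.05 was reached by 14, against 10% of all genes that were higher at that p in the edgeR QL test. The list was written with earlier results of these data known, so these counts describe it and test nothing. Only Duoxa2 passed the threshold, the maturation factor of the hydrogen peroxide producing oxidase DUOX2, with 832, 546, 7215 and 5115 counts in libraries 7 to 10 (log2 fold change 2.71, SE 0.264, edgeR QL test, BH-adjusted p = 0.0352), and it did not pass without library 9 or 10 (BH-adjusted p of 0.057 and 0.189 in the same edgeR test). DESeq2 called 9 genes of the list higher. The most abundant genes were Lypd8, which keeps flagellated bacteria off the mucosa, Pigr, the transporter of IgA, and Sprr2a1, a small proline-rich protein, at log2 fold changes of 1.13, 1.62 and 0.34 (BH-adjusted p of 0.147, 0.104 and 0.504 in the edgeR QL test). Saa1, a serum amyloid A gene, had 136, 1608, 17883 and 13409 counts, and its p53+/+ libraries differed from each other by more than 10 times in counts. The median of the list was 1.38 to 2.46 when 1 library was left out.

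**Figure D4:**
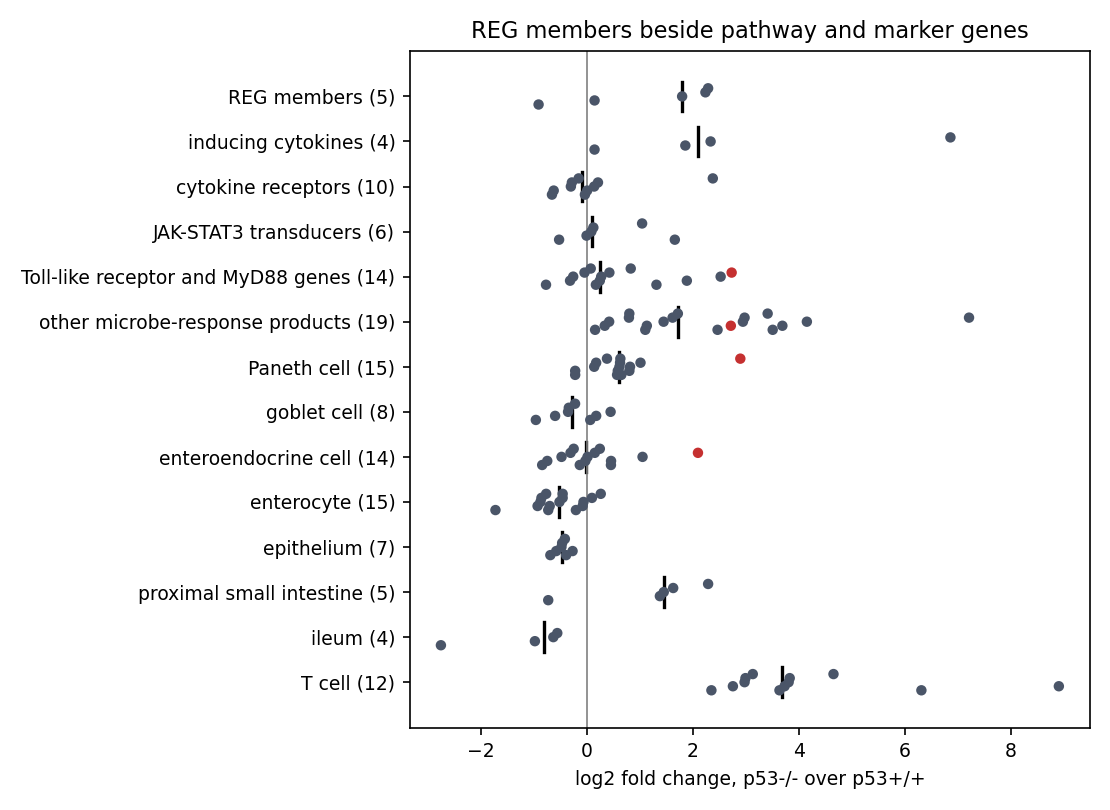
Log2 fold change, p53-/- over p53+/+, of every tested gene of 14 lists, with the number of genes in brackets; short lines are list medians and red points passed the edgeR QL test. The REG members have a median of 1.80 and the other microbe-response products of 1.72, while the medians of the epithelial, enterocyte and ileal lists lie below 0.

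Immune cell markers were also higher in the p53-/- libraries. All 12 T cell genes were higher in both p53-/- libraries, with a median log2 fold change of 3.68, and none passed the threshold, though all 12 had an unadjusted p under 0.05 and were called by DESeq2. Over all genes tested, 26.4% were so ordered, 10% were higher at that p and 5.47% were called higher by DESeq2. Lck, Cd8a and Cd4 were the most abundant, with log2 fold changes of 3.63, 2.99 and 2.35. The summed level of all 12 T cell genes was 9.47 and 17.8 CPM in p53+/+ and 88.7 and 177 CPM in p53-/-. The 7 tested B cell genes were higher in both p53-/- libraries too, and none passed, with all 7 at an unadjusted p under 0.05 and 6 called by DESeq2. Cd79a, Cd79b and Ms4a1 were the most abundant, at 2563, 1620 and 1408 counts in library 10 and 259, 124 and 32 in library 9. The summed level of the whole list of 8 B cell genes was 2.17, 3.05, 25.8 and 523 CPM in libraries 7 to 10, so that library 10 held far more of it than library 9, whereas Reg3b and Reg3g differed by 1.11 and 1.13 times between these libraries. The part of immune cells in the levels of the REG genes was not tested.

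Among the members, the patterns over the 4 libraries were compared by the root mean square difference of centred log2 CPM. Reg3b and Reg3g were the closest pair, at 0.265, and Reg3a and Reg4 came next at 0.528, while the other pairs lay between 0.831 and 1.67. Reg3b and Reg3g were thus the closest of the members both in this measure and in promoter sequence. For Reg3a and Reg4 the difference of 0.528 exceeded the root mean square of either gene's own centred values, 0.162 and 0.484. Their place as next pair thus reflects small changes over the libraries and not a shared pattern. Their promoter identity, at 44.3%, was the lowest of the REG pairs. A link between promoter sequence and pattern was not tested. Outside the family, 13992 protein-coding genes were searched. Those closest to Reg3b were Mro, Aspg, an asparaginase, and Eno3, an enolase, at 0.0370, 0.0607 and 0.0760. Those closest to Reg3g were Izumo1, which had at most 14 counts, Car4, the membrane-bound carbonic anhydrase of epithelia, with 892, 1282, 6599 and 6266 counts in libraries 7 to 10, and Trat1, which had at most 31 counts, at 0.112, 0.118 and 0.122. For Reg1 they were Tat, tyrosine aminotransferase, Adh6a, an alcohol dehydrogenase, and B3gnt7, a glycosyltransferase, at 0.161, 0.176 and 0.193. All 3 shared with Reg1 the higher value of library 7 over library 8, Tat for example with 328, 133, 2118 and 1288 counts. Those closest to Reg4 were Cgref1, Serpinb6a and Ngef at 0.0271, 0.0427 and 0.0464, and those closest to Reg3a were Med6, Lsm11 and Wdr74, at 0.00372, 0.00881 and 0.00884, genes that like Reg3a varied little. With 4 libraries many genes share any one pattern, and no test was made of it.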

How the data were processed

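For each of 4 libraries, the authors deposited unnormalized read counts by gene. The submitters' processing notes name fastp, HISAT2 2.0.5, featureCounts 1.5.0-p3 and DESeq2 1.20.0; the genome build, annotation and strand setting are not given in the sources used here. Column names show the genotype of a library without the replicate number in its label. Totals ran from 15005479 to 22173164 counts.

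From these counts, libraries were scaled by TMM, genes with low counts removed by filterByExpr, and 16094 of 56748 genes tested between genotypes, two-sided, with edgeR 4.0.16 (R 4.3.3), quasi-likelihood test, Benjamini-Hochberg adjustment, threshold 0.05. Libraries of one genotype differed beyond counting noise (chi-square per degree of freedom 48.0 and 69.5). Fold changes are p53-/- over p53+/+. Alternatives were other scalings, DESeq2 1.42.0, edgeR's likelihood ratio test, other filters and each library left out. Lengths, gene order and coding sequences came from GENCODE M21, which holds 91.8% of the deposited identifiers, and promoters from RefSeq, where all 7 REG genes were matched.

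The members and gene lists were chosen with earlier results of these data known. Named are all REG genes, Trp53, list genes (in lists of over 6 tested genes, those past the threshold and, if fewer than 3 passed, the 3 most abundant) and the 3 protein-coding genes closest to each member in centred log2 CPM (prior count 2). Other genes of the lists are named with their values beside the count of their list. The values of 1 list gene are not reported here.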

Additional observations from a re-analysis of the deposited data

How the results depend on the processing

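The number of REG members past the threshold was 0 in each direction under library sizes only, RLE and upper-quartile factors, at least 10 counts in every library, and scaling without the 50 most abundant genes. It was 3 higher and 1 lower with DESeq2, with edgeR's likelihood ratio test and with no filter on low counts, and 0 to 1 higher and 0 to 1 lower when 1 library was left out. Under these 3 settings, in that order, the log2 fold changes that passed were 2.29, 2.29 and 2.34 for Reg1, 1.78, 1.80 and 1.83 for Reg3b, 2.22, 2.24 and 2.27 for Reg3g, and -0.92, -0.91 and -0.86 for Reg4. With 1 library left out they ran from 1.64 to 3.48 for Reg1, 1.57 to 2.07 for Reg3b, 1.88 to 2.71 for Reg3g, -1.17 to -0.60 for Reg4 and -0.037 to 0.35 for Reg3a, which was reversed at -0.037 without p53+/+ library 8. Over all alternatives the adjusted p, by the test of each, ran from 0.00119 to 0.666 for Reg1, 2.04e-11 to 0.642 for Reg3b, 1.08e-10 to 0.588 for Reg3g, 0.00117 to 0.677 for Reg4 and 0.407 to 0.975 for Reg3a. Reg1 has no value at 10 counts in every library, since library 8 had 8. Of the pathway and marker genes, 4 were higher and 0 lower in the main test, against 2 higher with library sizes only, upper-quartile factors, the stricter filter or the 50 most abundant genes left out, 39 higher and 13 lower with DESeq2, 42 and 8 with the likelihood ratio test, 52 and 7 with no filter, and 0 to 24 higher and 0 to 2 lower when 1 library was left out. Over all genes the quasi-likelihood test called 48 higher and 31 lower, 1433 and 761 with no filter, and 680 and 344 without library 8, but 0 without library 10; the cause was not tested. The members' share of counts in p53-/- SI was 3.73% with the 50 most abundant other genes left out of the total. With the longest annotated transcript as length, the level of Reg3g was 1252 CPM per kb in p53+/+ and 5894 in p53-/-, and with all annotated exons, an alternative chosen after seeing the data, it was 1237 and 5825, and that of Reg3b 4434 and 15399. No paired analysis was possible because the column names carry no replicate numbers of the labels. The depth limits what can be said of Il22, Il6 and Reg2, all at 5 counts or fewer.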
